A study of Mus musculus with 112 samples.

Results

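The genes described here form the unfolded protein response and endoplasmic reticulum (ER) folding module of the mouse. They are 35 of the 32285 genes in the deposited count table and were taken by symbol: 4 stress sensors, 4 transcription factors, 9 chaperones of the Hsp70 and Hsp90 class with their cofactors, 6 lectin chaperones and protein disulfide isomerases, 8 genes of ER-associated degradation and 4 of the translocon. All 35 were followed in 3 cell populations sorted from crypts of the proximal small intestine of aged (23 to 27 months) and young (2 to 3 months) male and female C57BL/6 mice. Every mouse, aged or young, carried Lgr5-eGFP-IRES-CreERT2, in which the stem cell gene Lgr5 drives green fluorescent protein (GFP), and no treatment was listed. Paneth cells were sorted as CD24 high, high side scatter and GFP negative. Progenitors were sorted as GFP medium to low and intestinal stem cells (ISCs) as GFP high, both CD24 low, and all 3 gates were Epcam high. Paneth cells came from 12 aged and 12 young mice, progenitors from 10 aged and 10 young mice, and ISCs from 12 aged and 11 young mice. Some mice gave more than 1 population, so that 19 aged and 17 young animal names stood behind the 67 samples. A pair of the aged names, alike but for a suffix, may be 1 male and was counted as separate mice.

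The ER folds the proteins that a cell secretes or places in its membranes. When unfolded protein builds up there, 3 kinds of membrane sensor respond: IRE1 (Ern1 and, in gut epithelium, Ern2) splices the mRNA of the transcription factor Xbp1, PERK (Eif2ak3) slows translation while Atf4 is still made, and Atf6 is cut to release a transcription factor. Their targets are chaperones led by BiP (Hspa5), disulfide isomerases, and the machinery that returns misfolded protein to the cytosol for degradation. Paneth cells and goblet cells, which fill granules with antimicrobial proteins and mucin, rely on this pathway, and loss of Xbp1 in mouse intestinal epithelium is known to deplete Paneth cells.

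Promoters are shown for 5 members that hold a known control element of this response and that differed between Paneth cells and progenitors, Hspa5 and Hsp90b1 lower and Dnajc3, Derl3 and Herpud1 higher in Paneth cells of young mice relative to the typical gene (on library totals alone all but Derl3 lie below 0). The sequences are RefSeq promoters (GRCm38.p6), each from 250 bases before to 50 bases after the start of the gene and read along the gene. Capitals mark a match on either strand to the ER stress response element, ERSE, spelled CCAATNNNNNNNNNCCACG, or to its second form ERSE-II, spelled ATTGGNCCACG. Hspa5 lies at chr2:34771840-34772139 (+ strand), Hsp90b1 at chr10:86705395-86705694 (- strand), Dnajc3 at chr14:118937682-118937981 (+ strand), Derl3 at chr10:75893148-75893447 (+ strand) and Herpud1 at chr8:94386179-94386478 (+ strand).
Hspa5: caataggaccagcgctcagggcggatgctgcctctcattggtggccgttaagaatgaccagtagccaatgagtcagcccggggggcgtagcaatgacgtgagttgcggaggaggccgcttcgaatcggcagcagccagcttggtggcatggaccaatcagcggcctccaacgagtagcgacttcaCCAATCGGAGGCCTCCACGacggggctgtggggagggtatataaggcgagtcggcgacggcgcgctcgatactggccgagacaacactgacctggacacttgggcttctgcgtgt
Hsp90b1: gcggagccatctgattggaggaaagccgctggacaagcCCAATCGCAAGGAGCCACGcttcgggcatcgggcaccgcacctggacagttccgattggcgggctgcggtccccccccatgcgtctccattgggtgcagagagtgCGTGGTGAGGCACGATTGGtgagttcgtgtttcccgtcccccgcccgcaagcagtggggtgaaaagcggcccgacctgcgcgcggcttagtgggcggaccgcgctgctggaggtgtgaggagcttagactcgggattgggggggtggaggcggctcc
Dnajc3: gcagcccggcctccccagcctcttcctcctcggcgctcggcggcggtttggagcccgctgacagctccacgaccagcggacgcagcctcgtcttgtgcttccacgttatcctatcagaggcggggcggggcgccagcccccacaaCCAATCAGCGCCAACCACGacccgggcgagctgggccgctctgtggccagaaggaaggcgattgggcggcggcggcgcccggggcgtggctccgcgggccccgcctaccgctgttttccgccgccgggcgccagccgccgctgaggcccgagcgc
Derl3: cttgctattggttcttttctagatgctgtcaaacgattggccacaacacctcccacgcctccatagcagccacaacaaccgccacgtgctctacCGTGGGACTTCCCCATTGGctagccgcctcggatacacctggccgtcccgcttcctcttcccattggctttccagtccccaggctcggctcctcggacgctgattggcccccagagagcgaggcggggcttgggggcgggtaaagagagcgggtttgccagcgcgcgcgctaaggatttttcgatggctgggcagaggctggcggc
Herpud1: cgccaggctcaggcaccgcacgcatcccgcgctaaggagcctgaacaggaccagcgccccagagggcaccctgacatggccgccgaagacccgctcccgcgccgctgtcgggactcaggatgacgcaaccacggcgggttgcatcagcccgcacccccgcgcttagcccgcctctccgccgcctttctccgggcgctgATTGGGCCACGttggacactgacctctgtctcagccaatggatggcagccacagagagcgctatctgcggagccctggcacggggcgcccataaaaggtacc

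Of the 29 members with a promoter in the table, 9 (31.0%) held ERSE: Hspa5, Hsp90b1 with 2 matches, Dnajc3, Creld2, Calr, Canx, Pdia6, Syvn1 and Derl3. The same letters stood in 35 of 27025 promoters (0.13%). ERSE is a known element of this response and the members are its genes, so setting these shares side by side is no independent test. ERSE-II stood in the promoters of Dnajb11 and Herpud1 among members and in 10 promoters (0.037%) in all. The core TGACGTGG was in 164 promoters (0.607%) and in no member's window, and the C/EBP-ATF letters TGATGNAA were in 1096 promoters (4.06%), Herpud1 among them. ERSE and ERSE-II share CCACG, and no promoter of a member held both. These matches describe letters in a window of 300 bases and do not show binding.

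Counts per animal ran from 2.82 to 11.8 M in Paneth cells, from 2.48 to 7.57 M in progenitors and from 2.18 to 5.59 M in ISCs. Mitochondrial transcripts took a median of 58.2% of Paneth counts, against 4.02% in progenitors and 5.88% in ISCs, so 1.09 to 5.68 M counts per animal were left for nuclear genes in Paneth cells. Levels below are CPM (counts scaled to the library's total) after trimmed mean of M-values (TMM) scaling, which sets the typical gene equal between samples. In these bulk samples fewer cells of a type and less RNA per cell cannot be told apart. Summed Paneth and ISC markers were each highest in their own gate. Lyz1, the lysozyme of Paneth granules, had a median of 81890 and 57690 CPM in aged and young Paneth cells. It had 410.2 and 242 CPM in progenitors and 127 and 144.3 CPM in ISCs. Lgr5 had medians of 91.5 and 115 CPM in aged and young ISCs. The 12 ISC markers summed to medians of 10810 and 9865 CPM in aged and young ISCs. Paneth cells, at 3475 and 3037 CPM, held more of these ISC markers than progenitors, at 1564 and 1641 CPM. Progenitors also held the markers of goblet cells, another user of this pathway. The 10 goblet markers summed to medians of 9066 and 7678 CPM in aged and young Paneth cells, 19800 and 20470 CPM in progenitors, and 745 and 668 CPM in ISCs. All 10 had medians above 1 CPM in every group. Enteroendocrine markers summed to medians of 2226 and 1386 CPM in aged and young Paneth cells, 533 and 233 CPM in progenitors and 19.6 and 7.07 CPM in ISCs, and tuft cell markers to 434 and 549 CPM, 10.9 and 10.5 CPM, and 7.07 and 3.72 CPM. Enterocyte markers summed to medians of 1392 and 1531 CPM in aged and young Paneth cells, 946 and 795 CPM in progenitors and 163 and 153 CPM in ISCs. Immune markers other than those of plasma cells summed to 79.5 and 77.5 CPM, 1.71 and 2.05 CPM, and 1.20 and 0.832 CPM, and stromal and endothelial markers to 38.5 and 13.3 CPM, 23.5 and 10.7 CPM, and 0.385 and 0.216 CPM. Plasma cell markers summed to medians of 106.9 and 90.0 CPM in aged and young Paneth cells (highest 272.3 and 195 CPM). Their medians were 57.6 and 50.05 CPM in progenitors and 67.6 and 69.2 CPM in ISCs. Of the 10 plasma cell markers, 4 and 3 had medians above 1 CPM in aged and young Paneth cells. In progenitors and ISCs 1 did at each age, so the sums there rest on few genes. In aged and young ISCs 3 and 2 of 10 enteroendocrine and 2 and 1 of 8 tuft markers had such medians. None of the other immune or the stromal and endothelial markers did in ISCs. The part of these cells in the differences between populations was not tested.

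**Figure D1:**
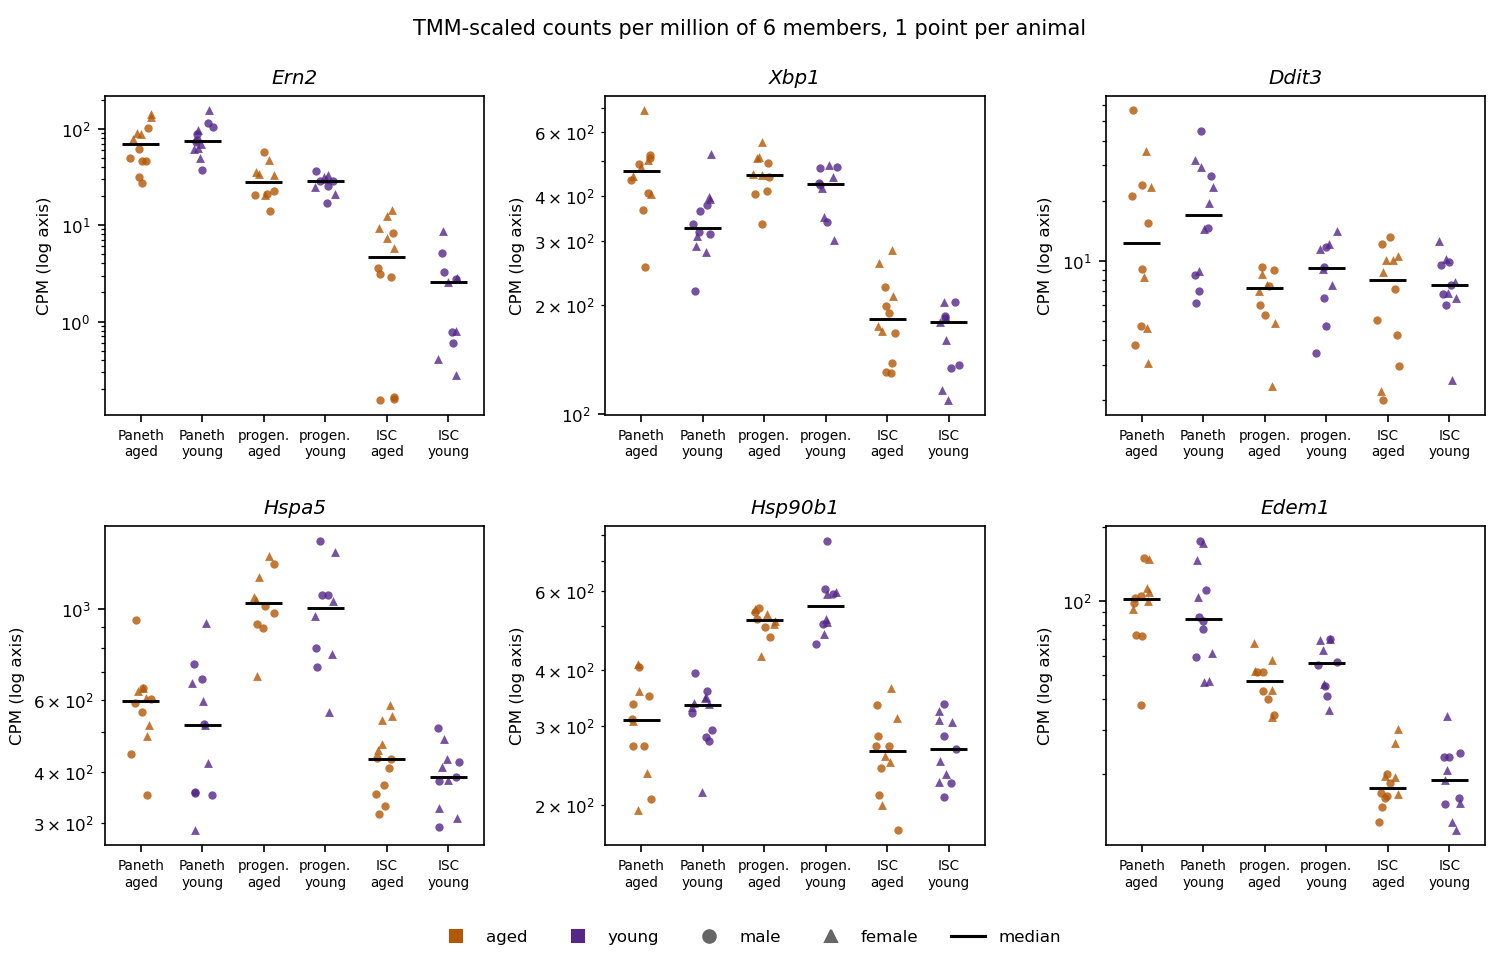
TMM-scaled CPM (log axis) of 6 members in every animal, aged left of young within Paneth cells, progenitors (progen.) and ISCs. Circles are males, triangles females and bars medians. Ern2 and Edem1 were highest in Paneth cells and Hspa5 and Hsp90b1 in progenitors, on this scale, while on library totals alone Paneth levels shift down against both other populations.

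Were the members higher in Paneth cells than in ISCs? In aged mice 24 of 35 members were higher in Paneth cells and none lower, and in young mice 28 were higher and none lower. The background was 16.9% of 12491 genes higher and 11.7% lower in aged mice, and 17.6% of 12376 genes higher and 12.8% lower in young mice. The median member stood at log2 0.944 in aged and 1.012 in young mice, where the median of all genes tested was -0.01 and 0.00. A total of 23 members were called at both ages. Calls are from the edgeR quasi-likelihood F test at a Benjamini-Hochberg adjusted p below 0.05 over all genes. Directions hold relative to the typical gene: on library totals alone the median gene shifted by -1.61 in aged and -1.86 in young mice, and 17 of the 24 and 23 of the 28 called members turned below 0.

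Among the sensors, Ern2, the IRE1 form of gut epithelium (ENSMUSG00000030866, chromosome 7, 122169893 to 122186207, GRCm38), stood furthest from ISCs. Its lowest, median and highest levels were 27.4, 69.7 and 140.3 CPM in aged Paneth cells and 0.153, 4.66 and 14.3 CPM in aged ISCs. In young mice they were 37.2, 73.7 and 154 CPM in Paneth cells and 0.277, 2.59 and 8.66 CPM in ISCs. No Paneth sample of either age overlapped an ISC sample of the same age. The log2 fold change was 3.86 ± 0.38 in aged mice (14.5-fold, edgeR adjusted p = 1.69e-10) and 5.06 ± 0.38 in young mice (33.4-fold, edgeR adjusted p = 9.15e-14, estimate ± SE). Ern1, the widely expressed IRE1, averaged 27.4 ± 9.38 and 21.1 ± 13.0 CPM in aged and young Paneth cells and 11.8 ± 4.66 and 11.1 ± 3.11 CPM in ISCs, and was higher in Paneth cells by 1.22 ± 0.23 and 0.93 ± 0.30 on the log2 scale (edgeR adjusted p = 3.68e-05 and 0.014). Atf6 was higher by 1.03 ± 0.34 and 1.16 ± 0.33 (edgeR adjusted p = 0.0185 and 0.00644), with means of 18.7 ± 9.34 and 19.3 ± 9.62 CPM in aged and young Paneth cells and 9.17 ± 3.52 and 8.98 ± 4.85 CPM in ISCs. Eif2ak3, the PERK gene, was not called at either age (log2 0.64 ± 0.33 and 0.04 ± 0.32).

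All 4 transcription factors were higher in Paneth cells at both ages, though the aged Ddit3 call was lost with the animal as a block (log2 0.41, edgeR adjusted p = 0.615), without animals of 26 and 27 months (1.00, edgeR adjusted p = 0.147) and with the deepest library of each animal (edgeR adjusted p = 0.114). Xbp1, the factor spliced by IRE1 (ENSMUSG00000020484, chromosome 11, 5520659 to 5525893, GRCm38), had a lowest, median and highest level of 254, 468 and 690 CPM in aged Paneth cells and 130, 182.2 and 284 CPM in aged ISCs, and 11 of 12 aged Paneth samples lay above every ISC sample. Young Paneth cells had 219, 326 and 522 CPM and young ISCs 109, 179 and 204 CPM, which did not overlap. Its log2 fold change was 1.28 ± 0.12 in aged and 1.09 ± 0.12 in young mice (edgeR adjusted p = 4.36e-12 and 9.75e-10). Ddit3, the gene of the apoptosis-linked factor CHOP, had a lowest, median and highest level of 3.07, 12.3 and 56.6 CPM in aged Paneth cells and 2.00, 7.97 and 13.1 CPM in aged ISCs, and of 6.16, 17.0 and 44.5 CPM in young Paneth cells and 2.52, 7.58 and 12.5 CPM in young ISCs. The groups overlapped at both ages, with 6 and 8 of 12 Paneth samples above every ISC sample. The log2 fold change was 1.19 ± 0.41 in aged and 1.34 ± 0.32 in young mice (edgeR adjusted p = 0.0254 and 0.0012). Atf4, which is translated when PERK or its sister kinases act, was higher by 0.72 ± 0.12 and 0.85 ± 0.11 (edgeR adjusted p = 2.68e-06 and 2.18e-08). Creb3l4, an ER membrane-bound factor of the same class as Atf6, was higher by 2.85 ± 0.25 and 2.46 ± 0.30 (edgeR adjusted p = 1.26e-12 and 7.49e-09), with 46.7 ± 14.3 and 49.0 ± 26.6 CPM in aged and young Paneth cells and 6.42 ± 2.81 and 8.91 ± 5.33 CPM in ISCs.

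Of the 9 chaperones and cofactors of the Hsp70 and Hsp90 class, 5 were higher in aged and 7 in young Paneth cells. Hspa5, which encodes BiP, the central ER Hsp70, was higher too. Its lowest, median and highest levels were 352, 597 and 937 CPM in aged Paneth cells and 314.99, 430.4 and 583 CPM in aged ISCs, and 288, 522 and 921 CPM in young Paneth cells and 293, 388.7 and 511 CPM in young ISCs. At each age 7 of 12 Paneth samples lay above every ISC sample. The log2 fold change was 0.41 ± 0.11 in aged and 0.45 ± 0.16 in young mice (edgeR adjusted p = 0.00448 and 0.0291), and without the filter on low counts the young Hspa5 call was lost (0.43, edgeR adjusted p = 0.0807). Dnajc3, a co-chaperone that binds BiP, was higher by 2.12 ± 0.16 and 2.11 ± 0.16 (edgeR adjusted p = 7.66e-15 and 1.82e-14) with no overlap between the groups at either age. Sdf2l1, a partner of the BiP cofactor Dnajb11, was not called at either age (1.16 ± 0.53 and 0.23 ± 0.50). Hyou1, the exchange factor of BiP, was not called either (0.46 ± 0.47 and 1.19 ± 0.48), but in young mice DESeq2 called it (1.21, DESeq2 adjusted p = 0.0205), as did edgeR with DESeq2 size factors (1.20, edgeR adjusted p = 0.0499).

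In the lectin chaperones and isomerases 3 of 6 were higher at both ages, Calr, Pdia6 and P4hb. P4hb, a protein disulfide isomerase, averaged 1936 ± 463 and 1513 ± 181 CPM in aged and young Paneth cells and 489 ± 38.9 and 476 ± 60.1 CPM in ISCs (log2 1.99 ± 0.10 and 1.69 ± 0.09, edgeR adjusted p = 3.95e-20 and 6.76e-20). Canx, Pdia3 and Pdia4 were not called, with log2 values from -0.60 to 0.42. Degradation genes were higher in 6 of 8 cases in aged and 7 of 8 in young mice. Edem1, which helps to draw misfolded glycoproteins out of the folding cycle, had a lowest, median and highest level of 37.9, 102 and 149 CPM in aged Paneth cells and 12.7, 17.4 and 30.4 CPM in aged ISCs. In young mice these were 47.1, 85.0 and 176 CPM in Paneth cells and 11.8, 18.8 and 34.4 CPM in ISCs, again without overlap. Its log2 fold change was 2.42 ± 0.17 in aged and 2.34 ± 0.22 in young mice (edgeR adjusted p = 1.76e-15 and 5.38e-12). Derl3, a derlin of the retrotranslocation complex, was called in young mice (log2 2.65 ± 0.63, edgeR adjusted p = 0.000931) but not in aged mice (1.38 ± 0.81, edgeR adjusted p = 0.204). It ranged from 0.927 to 42.4 CPM in young Paneth cells and from 0 to 28.1 CPM in aged Paneth cells, against 0 to 3.32 CPM in young ISCs and 0 to 6.03 CPM in aged ISCs. Of the 4 translocon genes, 3 were higher in aged and all 4 in young mice, Sec61a1 by 1.17 ± 0.13 and 1.29 ± 0.10 (edgeR adjusted p = 1.12e-09 and 6.40e-15). With the animal as a block the calls of Atf6 (log2 0.92, edgeR adjusted p = 0.141) and Hsp90b1 (0.24, edgeR adjusted p = 0.0996) in young mice were lost. Leaving out 1 sample at a time ended the call of Hsp90b1 in 22 of 33 fits, of Hspa5 in 4 (highest edgeR adjusted p = 0.0701, without young female Paneth replicate 6) and of Ssr1 in 2 in young mice, and of Dnajb11 in 20 of 34 and Ddit3 in 4 in aged mice.

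**Figure D2:**
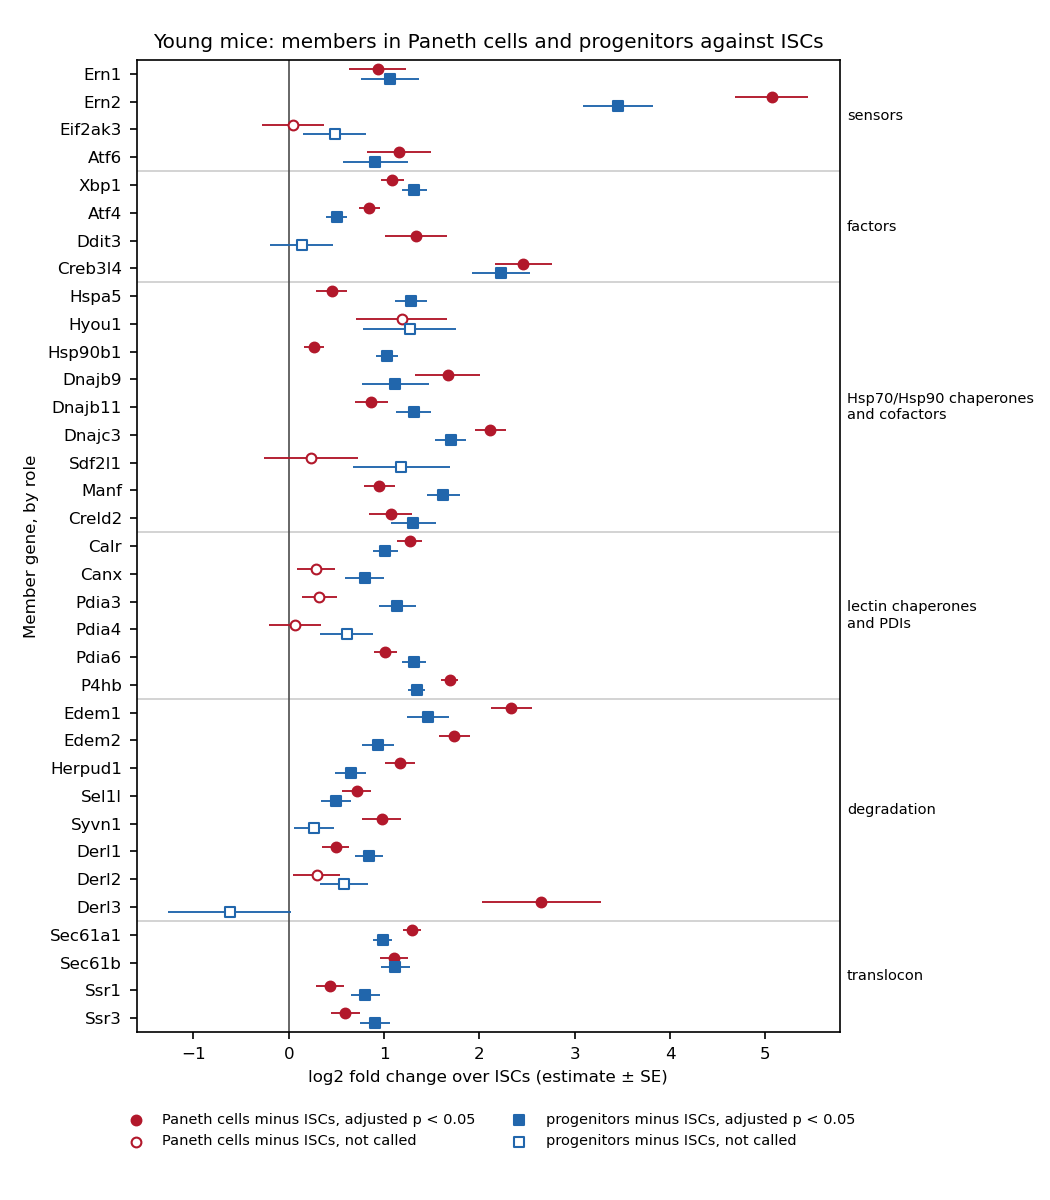
Log2 fold change of each member over ISCs in young mice, estimate ± SE, with Paneth cells as circles and progenitors as squares and filled symbols for edgeR adjusted p below 0.05. In Paneth cells 28 and in progenitors 27 of 35 members lay above 0 with a call. On library totals alone 23 of the 28 Paneth calls fall below 0 and none of the 27 progenitor calls does.

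Progenitors, the next stage after ISCs, carried the module at a higher level than ISCs as well. In both aged and young mice 27 of 35 members were higher and none lower, and the same 27 were called at both ages. The background was 14% of genes higher and 10.5% lower in aged mice and 13.1% higher and 11.2% lower in young mice. The median member stood at log2 0.94 in aged and 1.03 in young mice, against -0.03 and -0.06 for all genes. On library totals alone the median gene shifted by -0.18 and -0.16 and all 27 stayed above 0, but 5 aged calls (Atf4, Atf6, Edem2, Herpud1 and Sel1l, highest edgeR adjusted p = 0.126) and 2 young calls (Atf6 and Sel1l, highest edgeR adjusted p = 0.126) were lost.

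Ern2 had a lowest, median and highest level of 13.9, 27.8 and 56.9 CPM in aged progenitors and 16.8, 29.0 and 36.6 CPM in young progenitors. Young progenitors did not overlap young ISCs, and 9 of 10 aged progenitors lay above every aged ISC sample. It was higher than in ISCs by log2 2.55 ± 0.37 in aged and 3.46 ± 0.37 in young mice (edgeR adjusted p = 9.71e-07 and 1.06e-09). Ern1 was higher by 0.92 ± 0.23 and 1.07 ± 0.31 (edgeR adjusted p = 0.00246 and 0.00732) and Atf6 by 1.05 ± 0.35 and 0.91 ± 0.34 (edgeR adjusted p = 0.022 and 0.0456), while Eif2ak3 was not called (0.38 ± 0.34 and 0.48 ± 0.33). Xbp1 had a lowest, median and highest level of 336, 458 and 565 CPM in aged and 302, 431 and 488 CPM in young progenitors, above every ISC sample of the same age. Its log2 fold change was 1.25 ± 0.12 and 1.32 ± 0.13 (edgeR adjusted p = 2.95e-11 and 1.81e-11). Creb3l4 was higher by 2.85 ± 0.26 and 2.23 ± 0.30 (edgeR adjusted p = 3.04e-12 and 1.28e-07), again with no overlap. Atf4 was higher by 0.45 ± 0.12 and 0.50 ± 0.11 (edgeR adjusted p = 0.0036 and 0.000537). Ddit3 was not called, at 6.74 ± 2.15 and 8.998 ± 3.448 CPM in aged and young progenitors against 7.35 ± 3.95 and 7.83 ± 2.65 CPM in ISCs (log2 -0.14 ± 0.42 and 0.13 ± 0.33).

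Of the 9 chaperones and cofactors 7 were higher at each age, and Hyou1 (log2 0.30 ± 0.48 in aged and 1.27 ± 0.49 in young mice) and Sdf2l1 (1.17 ± 0.54 and 1.18 ± 0.51) were not called. DESeq2 called Hyou1 higher in young progenitors (1.25, DESeq2 adjusted p = 0.0239). Hspa5 had a lowest, median and highest level of 685, 1032 and 1346 CPM in aged and 559, 1002 and 1465 CPM in young progenitors, and no progenitor overlapped an ISC sample of its age. It was higher by log2 1.24 ± 0.12 in aged and 1.29 ± 0.17 in young mice (edgeR adjusted p = 1.56e-11 and 1.11e-07). Dnajc3 was higher by 1.38 ± 0.16 and 1.70 ± 0.17 (edgeR adjusted p = 3.19e-09 and 2.78e-11) and Manf, a secreted BiP-binding protein, by 1.22 ± 0.16 and 1.62 ± 0.17 (edgeR adjusted p = 5.68e-08 and 2.55e-10). Manf averaged 154 ± 28.7 and 163 ± 30.8 CPM in aged and young progenitors and 65.8 ± 13.3 and 51.9 ± 11.7 CPM in ISCs. In the lectin chaperones and isomerases 5 of 6 were higher, Pdia4 apart. Degradation genes were higher in 5 of 8 cases, without Syvn1, Derl2 and Derl3, and all 4 translocon genes were higher by log2 0.66 to 1.16 in aged and 0.81 to 1.12 in young mice. With the animal as a block 6 of the 27 aged calls were lost (Atf4, Dnajb9, Herpud1, Sel1l, Derl1 and Ssr1, highest edgeR adjusted p = 0.197) and 4 of the young ones (Atf6, Dnajb9, Canx and Sel1l, highest edgeR adjusted p = 0.586), while Syvn1 was gained at each age. Atf6 in young mice lost its call on removal of any of 14 of the 33 samples (edgeR adjusted p = 0.0892 at most).

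Paneth cells and progenitors, both above ISCs, also differed from each other. In aged mice 8 members were higher and 10 lower in Paneth cells, and in young mice 11 were higher and 4 lower. The background was 13.3% of genes higher and 10.7% lower in aged mice and 16% higher and 11.5% lower in young mice. The 4 lower of 35 members in young mice lay near that share of 11.5%, so this count does not set the module apart. With the animal as a block the 10 lower members of aged mice became 5, without Dnajb11, Pdia3, Pdia4, Pdia6 and Ssr1 (highest edgeR adjusted p = 0.205), and the higher calls of Ddit3 in aged mice (0.85, edgeR adjusted p = 0.351) and Atf4 in young mice (0.28, edgeR adjusted p = 0.0559) were lost. On library totals alone the median gene shifted by -1.45 in aged and -1.71 in young mice, and all 18 called members of aged mice and 14 of the 15 of young mice were then below 0. The median member stood at log2 0.03 and -0.08, with members from -0.97 to 2.06 in aged and from -0.95 to 3.27 in young mice.

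Higher in Paneth cells at both ages were Ern2, Ddit3, Dnajc3, P4hb, Edem1, Edem2 and Herpud1. Of the 8 degradation genes 3 were higher and 1 lower in aged mice, and 5 were higher and none lower in young mice. Edem2, a mannosidase-like relative of Edem1, had a lowest, median and highest level of 79.2, 127 and 224 CPM in aged Paneth cells and 27.9, 57.4 and 72.0 CPM in aged progenitors, which did not overlap. In young mice 8 of 12 Paneth samples lay above every progenitor (69.3, 103 and 187 CPM against 52.4, 66.0 and 90.3 CPM). Its log2 fold change was 1.26 ± 0.17 and 0.80 ± 0.17 (edgeR adjusted p = 2.24e-07 and 2e-04). Edem1 was higher by 1.11 ± 0.17 and 0.87 ± 0.21 (edgeR adjusted p = 2.61e-06 and 0.00161), with 11 and 8 of 12 Paneth samples above every progenitor. Herpud1, a membrane protein of the same retrotranslocation complex, was higher by 0.74 ± 0.17 and 0.51 ± 0.16 (edgeR adjusted p = 0.00117 and 0.0134). Derl3 had the largest difference among called members in young mice (3.27 ± 0.67, edgeR adjusted p = 2e-04), with 12.3 ± 12.7 CPM in Paneth cells and 1.15 ± 1.38 CPM in progenitors, where 2 of 10 samples had no count, and was not called by edgeR in aged mice (2.06 ± 0.87, edgeR adjusted p = 0.0799), where DESeq2 called it (2.17, DESeq2 adjusted p = 0.0431). Ern2 was higher by 1.31 ± 0.35 and 1.61 ± 0.32 (edgeR adjusted p = 0.00531 and 0.000191) and in young mice no Paneth sample overlapped a progenitor. Ddit3 was higher by 1.33 ± 0.43 and 1.20 ± 0.33 (edgeR adjusted p = 0.0201 and 0.00487), and 6 and 8 of 12 Paneth samples lay above every progenitor. Dnajc3 was higher by 0.74 ± 0.16 and 0.42 ± 0.16 (edgeR adjusted p = 0.000408 and 0.0455). In young mice Dnajc3 lost its call on removal of any of 16 of the 33 samples, with edgeR adjusted p = 0.104 at most, when young female Paneth replicate 6 was dropped.

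Lower in Paneth cells than in progenitors at both ages were Hspa5, Hsp90b1, Manf and Pdia3. Hsp90b1, the Hsp90 of the ER, separated the populations without overlap at both ages. Its lowest, median and highest levels were 195, 310 and 412 CPM in aged Paneth cells and 430.4, 518 and 551 CPM in aged progenitors, and 214, 334 and 394 CPM in young Paneth cells and 457, 554 and 776 CPM in young progenitors. The log2 fold change was -0.74 ± 0.12 in aged and -0.76 ± 0.11 in young mice (edgeR adjusted p = 8.08e-06 and 3.28e-07). Hspa5 stood at -0.83 ± 0.12 and -0.84 ± 0.16 (edgeR adjusted p = 3.87e-07 and 0.000126), with 11 and 7 of 12 Paneth samples below every progenitor. Manf stood at -0.67 ± 0.16 and -0.67 ± 0.17 (edgeR adjusted p = 0.00129 and 0.0018). Pdia3, the isomerase that works with the lectin chaperones, stood at -0.71 ± 0.22 and -0.82 ± 0.19 (edgeR adjusted p = 0.0145 and 8e-04). In aged mice Dnajb11, Canx, Pdia4, Pdia6, Derl1 and Ssr1 were lower too, and these had log2 values from -0.55 to -0.30 without a call in young mice. Ern1, Atf6, Eif2ak3 and Xbp1 were not called at either age. The printed promoters were chosen for holding ERSE or ERSE-II, so their matches cannot compare higher with lower members. Of the other members called at both ages, Pdia3 (lower) and Ddit3, P4hb, Edem1 and Edem2 (higher) held neither element. Ern2 and Manf had no promoter sequence. In young mice 8 members were lower without young female Paneth replicate 6 and 7 without young female progenitor replicate 2, in place of 4. With the deepest library of each animal in place of the sum, the young counts became 7 higher and 2 lower, Hspa5 and Hsp90b1.

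**Figure D3:**
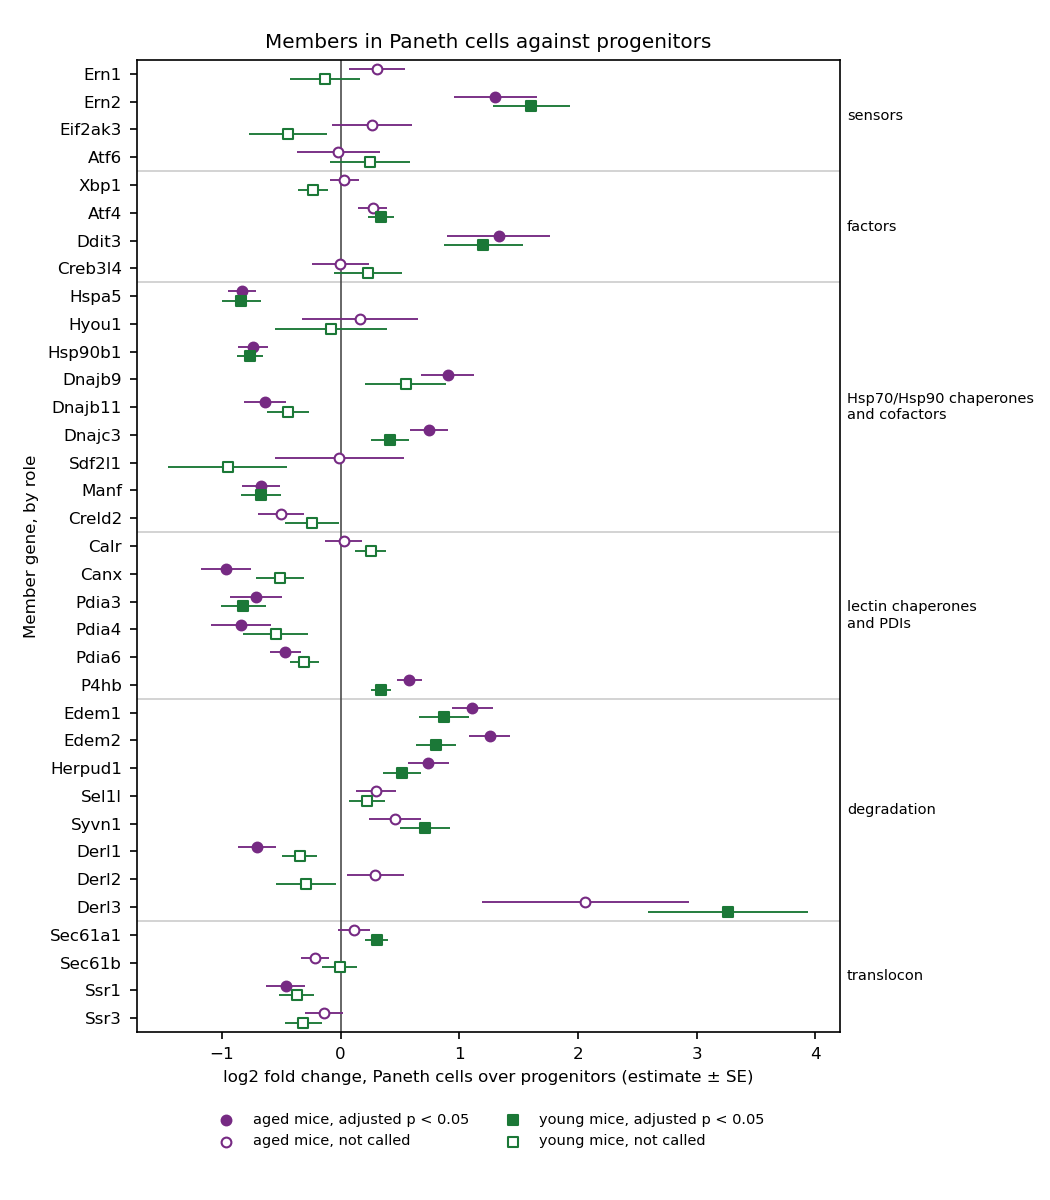
Log2 fold change of each member in Paneth cells over progenitors, estimate ± SE, aged mice as circles above young mice as squares, filled where edgeR adjusted p was below 0.05. Edem1, Edem2 and Herpud1 lie to the right of 0 and Hspa5, Hsp90b1, Manf and Pdia3 to the left at both ages, relative to the typical gene. On library totals alone only 1 of the 15 calls of young mice stays above 0.

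Did age change the module? No member was called in Paneth cells, progenitors or ISCs. Over all genes 0.0686% of 11663 were called in Paneth cells, 0.728% of 11812 in progenitors and 0.351% of 11958 in ISCs. An unadjusted p below 0.05 was reached by 797 of 11663 genes in Paneth cells, 1070 of 11812 in progenitors and 1064 of 11958 in ISCs. Members at that level numbered 5, 2 and 6, and DESeq2 called 0 members in each population. The median member estimate was log2 -0.01 in Paneth cells, -0.04 in progenitors and 0.05 in ISCs. Estimates ran from -1.62 to 0.89, from -0.45 to 0.20 and from -0.48 to 0.98, with SE of 0.12 to 0.69, 0.08 to 0.72 and 0.08 to 0.71. A missed threshold at these errors does not show that levels were equal.

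In Paneth cells the smallest p belonged to Xbp1. Its level was 460.2 ± 104 CPM in aged and 343 ± 76.2 CPM in young Paneth cells, with 254, 468 and 690 CPM against 219, 326 and 522 CPM as lowest, median and highest. The groups overlapped, and the log2 fold change of 0.41 ± 0.13 did not pass (edgeR adjusted p = 0.367). It was 0.38 ± 0.18 in males and 0.45 ± 0.20 in females. P4hb stood at 1936 ± 463 CPM in aged and 1513 ± 181 CPM in young Paneth cells (log2 0.34 ± 0.12, edgeR adjusted p = 0.422), Derl3 at 3.93 ± 7.85 and 12.3 ± 12.7 CPM (-1.62 ± 0.68, edgeR adjusted p = 0.604) and Eif2ak3 at 20.9 ± 14.0 and 11.6 ± 5.86 CPM (0.89 ± 0.42, edgeR adjusted p = 0.703). In aged mice Derl3 was highest in male replicate 7 at 28.1 CPM, the next aged male had 5.93 CPM, and without that replicate the Derl3 estimate was -2.45 (edgeR adjusted p = 0.233). Mitochondrial transcripts took a median of 55.0% of counts in aged and 61.3% in young Paneth cells, and the 11 Paneth markers summed to 228100 and 170100 CPM. Whether these shifts bear on the members was not tested.

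In ISCs the 4 smallest p belonged to BiP cofactors and related folding genes. Creld2, an ER protein induced by stress, stood at 39.1 ± 8.99 CPM in aged and 29.3 ± 5.72 CPM in young ISCs (log2 0.40 ± 0.15, edgeR adjusted p = 0.379). Dnajb11 stood at 60.3 ± 14.4 and 44.4 ± 11.5 CPM (0.41 ± 0.16, edgeR adjusted p = 0.379). Manf stood at 65.8 ± 13.3 and 51.9 ± 11.7 CPM (0.33 ± 0.14, edgeR adjusted p = 0.442) and Hyou1 at 5.61 ± 2.41 and 2.91 ± 1.47 CPM (0.92 ± 0.39, edgeR adjusted p = 0.462). Each pair of groups overlapped. The 9 chaperones and cofactors had a median of 0.11 in Paneth cells, -0.08 in progenitors and 0.33 in ISCs. Plasma cells express the module strongly. Of their 10 markers 1 had a median above 1 CPM in ISCs of each age, and Mzb1 was at a median of 0 in every group. The 10 summed to 346.6 CPM in aged female ISC replicate 2, against 46.8 to 100.2 CPM in the other aged ISC samples. Without that sample the log2 estimates were 0.39 for Creld2, 0.47 for Dnajb11, 0.35 for Manf and 0.81 for Hyou1 (edgeR adjusted p = 0.455, 0.289, 0.454 and 0.609). Hspa5 in ISCs was 0.14 ± 0.09 (435 ± 86.6 CPM in aged and 394 ± 68.0 CPM in young ISCs) and Ern2 0.98 ± 0.56 (5.62 ± 4.80 and 2.56 ± 2.54 CPM), neither called.

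In progenitors Edem2 (56.0 ± 13.6 CPM in aged and 68.3 ± 11.7 CPM in young mice, log2 -0.30 ± 0.14, edgeR adjusted p = 0.497) and Dnajc3 (92.1 ± 13.4 and 107 ± 19.7 CPM, -0.23 ± 0.11, edgeR adjusted p = 0.551) had the smallest p. Ern1 and Atf6 stood at -0.08 ± 0.15 and 0.18 ± 0.20, and Atf4, Ddit3 and Hspa5 at -0.10 ± 0.08, -0.38 ± 0.26 and 0.08 ± 0.15. Differences of the age effect between sexes were called for 0 members, and for 0% of all genes in Paneth cells, 0% in progenitors and 0% in ISCs. An unadjusted p below 0.05 was reached by 621 of 11663 genes in Paneth cells, 731 of 11812 in progenitors and 838 of 11958 in ISCs. Members at that level numbered 2, 2 and 6, and DESeq2 called 0 members. In ISCs these 6 were Hspa5, Sec61a1, Atf4, Syvn1, Derl3 and Calr, each with a negative estimate for the age effect of males minus that of females. Hspa5 stood at -0.48 ± 0.18 (edgeR adjusted p = 0.603). The median estimate over members was -0.14 in male and 0.16 in female Paneth cells, -0.04 in male and 0.06 in female progenitors, and -0.01 in male and 0.22 in female ISCs. Differences of the age effect between populations were also called for 0 members. The background was 0.0376% of 13287 genes for Paneth cells against ISCs, 0.00753% for progenitors against ISCs and 0% for Paneth cells against progenitors. An unadjusted p below 0.05 was reached by 1184, 291 and 966 of the 13287 genes in that order. Members at that level numbered 3, 0 and 2, and DESeq2 called 0 members in each. P4hb was 0.32 ± 0.13 for Paneth cells against ISCs (edgeR adjusted p = 0.373).

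**Figure D4:**
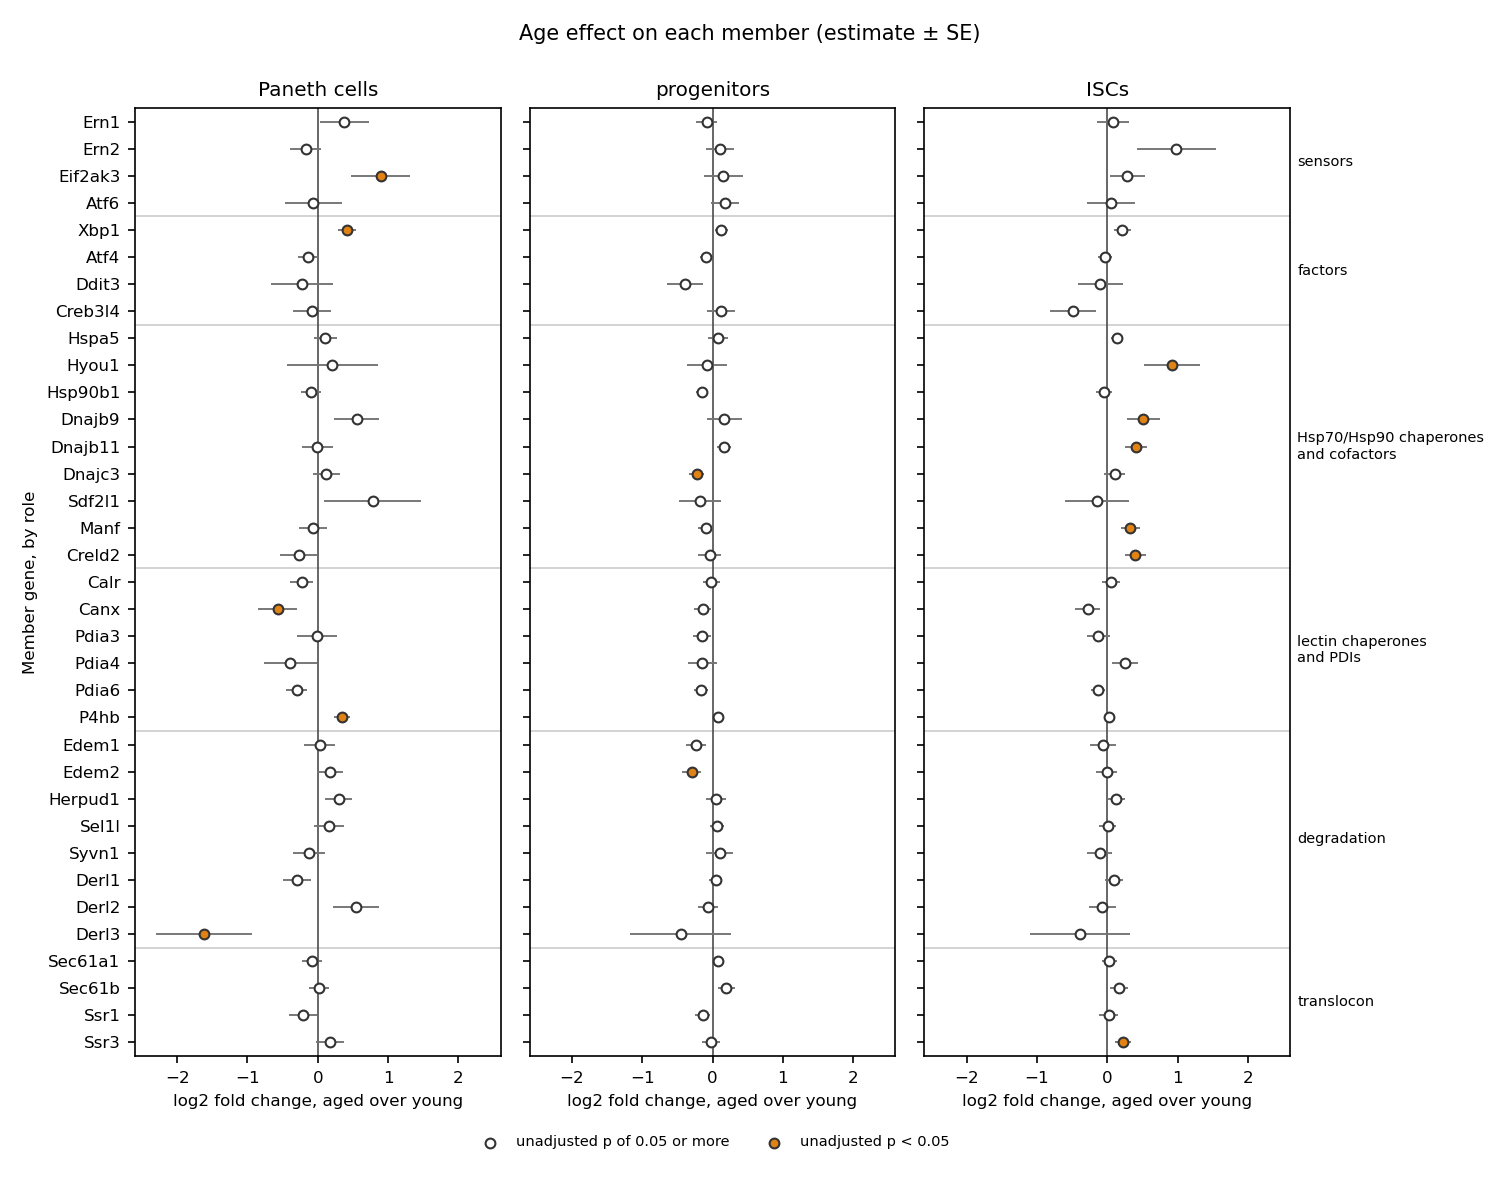
Log2 fold change of each member in aged over young mice, estimate ± SE, in Paneth cells, progenitors and ISCs. No member was called in any population. Orange points had an unadjusted p below 0.05, 5 in Paneth cells, 2 in progenitors and 6 in ISCs. Over all genes tested 797 of 11663, 1070 of 11812 and 1064 of 11958 reached that level.

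How variable was the module between animals? The coefficient of variation (SD over mean) had a median over members of 37.4% and 38.8% in aged and young Paneth cells, 22.3% and 20.96% in progenitors, and 23.2% and 25.6% in ISCs. Derl3 varied most (199.8% in aged and 103% in young Paneth cells), and P4hb varied least in young Paneth cells (11.9%). The 24 Paneth samples were each the sum of 2 or 3 technical libraries (69 libraries). Between libraries of an animal the SD on the log2(CPM + 1) scale had a median of 0.819 over members, against 0.59 between animal means, and was the larger for 32 of 35 members. Hspa5, with 0.334 between libraries and 0.47 between animal means, was among the 3 exceptions. CPM here were of counts without mitochondrial genes and without TMM scaling. Animal means average 2 or 3 libraries, which lowers their SD, so these values do not weigh library spread against animal spread.

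The wider pathway was read from 6 further lists of 75 genes, chosen with earlier results of these data known. In Paneth cells against ISCs in young mice 14 of 16 other ER chaperones and oxidoreductases were higher and 1 lower, led by the oxidase gene Ero1lb (log2 3.48 ± 0.49, edgeR adjusted p = 1.55e-07) and the prolyl isomerase gene Fkbp11 (3.47 ± 0.31). In progenitors 11 of 16 were higher, led by Agr2, a mucin-folding disulfide isomerase that is itself a goblet marker (4.25 ± 0.28, edgeR adjusted p = 1.58e-12), and Fkbp11 (2.77 ± 0.31). Other degradation genes were higher in 6 of 12 cases in Paneth cells, with Os9 at 1.32 and Selenos at 1.26, and in 3 of 12 in progenitors, with Edem3 at 1.45 and Selenos at 1.22. Other translocon and signal peptidase genes were higher in 9 of 13 cases in each, Tram1 by 1.78 and 1.51. Among other kinases, proteases and membrane-bound factors 5 of 11 were higher and 1 lower in Paneth cells and 4 higher in progenitors, with Creb3l3 at 4.06 and 3.02 and Creb3l1 at 2.68 and 3.26. Between Paneth cells and progenitors of young mice 5 of 16 other chaperones were higher and 5 lower (Ero1lb at 2.02, Agr2 at -1.90), 1 of 12 degradation genes was higher (Os9 at 0.90) and 1 lower, 4 of 13 translocon and signal peptidase genes were lower (Spcs1 at -0.67, Sec11a at -0.61), and 2 of 11 kinases, proteases and factors were higher and 1 lower (Creb3l3 at 1.04, Mbtps2 at -1.31), each relative to the typical gene. Over all genes of young mice 17.6% were higher and 12.8% lower in Paneth cells against ISCs, 13.1% higher and 11.2% lower in progenitors against ISCs, and 16% higher and 11.5% lower in Paneth cells against progenitors. The single degradation gene called in each direction between Paneth cells and progenitors lay below those shares, and the 2 higher and 1 lower of 11 kinases, proteases and factors lay near them.

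Oligosaccharyltransferase subunits attach glycans to new ER proteins. In young mice 8 of 10 were higher in progenitors than in ISCs, with Ostc at log2 1.404 ± 0.14 and Ddost at 1.05 ± 0.14, and 5 of 10 were higher in Paneth cells than in ISCs, with Dad1 at 0.74 ± 0.10. In Paneth cells against progenitors 5 were lower and none higher, Ostc by -1.29 ± 0.14 and Stt3b by -0.73 ± 0.11 (edgeR adjusted p = 5.60e-10 and 2.85e-06), relative to the typical gene. A further list held targets of the integrated stress response, the branch shared by PERK and other kinases. Of 12 listed, 9 passed the filter on low counts in young mice. Of these 9, 6 were higher and none lower in Paneth cells than in progenitors. Nupr1 stood at 4.88 ± 0.47 and Atf3 at 3.54 ± 0.59 (edgeR adjusted p = 3.65e-09 and 8.44e-06). In the age fits of 1 population each, 9 passed in Paneth cells, 9 in progenitors and 7 in ISCs. Counts against ISCs can therefore hold genes that passed only through the other populations. Against ISCs 6 were higher in Paneth cells, Nupr1 by 6.80 and Vldlr by 3.73, while in progenitors 2 were higher, Vldlr by 2.24 and Nupr1 by 1.92, and 2 lower. The count of higher genes in Paneth cells over progenitors was 6 of 9 in aged mice too. By age 1 gene of the 6 lists was called: Atf3, an early stress factor, was higher in aged progenitors by 2.08 ± 0.47 (edgeR adjusted p = 0.0203). Its estimates were 3.30 ± 0.69 in males and 0.86 ± 0.64 in females. Over all genes 0.728% were called by age in progenitors, and a single call is no result about the lists. The 9 integrated stress response targets tested there had a median age estimate of log2 -0.06.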

How the data were processed

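RNA from 112 libraries (67 samples of 1 animal and population each) was made into 3' cDNA by SC3-seq from 1 ng of total RNA and sequenced on a NextSeq instrument, per the labels' protocols. The authors deposited raw counts per gene and CPM (counts scaled to a fixed library total) for every library. The submitters' processing notes name cutadapt 3.0, STAR 2.7.9a, HTSeq 0.13.5, DESeq2 1.30.1 and mm10, and no source used here gives the annotation release or strand setting. The deposited CPM repeat the counts after scaling and were not used further.

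Technical Paneth libraries, 69 in all, were summed per animal. Genes were filtered with filterByExpr (minimum count 10), which all 35 members passed in every fit, and tested with edgeR 4.0.16 (glmQLFit, robust, TMM scaling) in R 4.3.3, with Benjamini-Hochberg adjustment over all genes tested and a threshold of 0.05. Age effects came from groups of age and sex within a population, population differences from groups of population and sex within an age, each averaged over sexes, and differences of age effects from all 12 groups. Estimates carry an SE worked back from the edgeR test, as the absolute log2 fold change over the square root of F. Levels carry their SD. Total counts per library ran from 1.08 to 7.57 M, and genes near 0 counts are the least precise. The labels give animal names, but a pair of aged names that differ by a suffix may be the same male, and 1 aged female is given as 24 months for ISCs and 23 months for the other populations. Names were used as given, so the animal block and pair counts treat that pair as separate mice. Scripts were tested on simulated data.

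Ddit3 has 2 Ensembl IDs, of which the one with counts was used. Full values are given for members called by age, for the 4 called members with the largest change in each direction in each population comparison of young mice, for Xbp1, Ern1, Ern2, Atf6, Eif2ak3, Atf4, Ddit3 and Hspa5 throughout, for up to 4 members with the smallest p by age in each population, and for up to 2 called genes of each other list. The values of 1 such list gene are not reported here. Values of Edem2, P4hb, Herpud1 and Sec61a1, and of Dnajc3 and Hsp90b1 outside that rule, were added after they had been seen. The members and lists were chosen with earlier results of these data known. Replicate numbers did not pair samples (median correlation of deviations 0.00356 in Paneth cells, -0.00812 in progenitors and 0.0275 in ISCs between aged and young samples of a sex that share a number), while animal names tied populations of the same mouse (15, 10 and 14 pairs for Paneth cells with ISCs, progenitors with ISCs and Paneth cells with progenitors, median 0.0509, 0.0751 and 0.049). Alternatives were DESeq2 1.42.0, its size factors, library totals, no filter, no mitochondrial genes, the deepest Paneth library and the animal as a block. Others were leaving out animals of 26 and 27 months, the replicate number as a block, and leaving out each sample. For age in ISCs alone, a term for whether the sample name ended in a number was also fitted.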

Additional observations from a re-analysis of the deposited data

Results flagged for a closer look

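Within a group of age, sex and population, a member was picked out where 1 animal stood far from the others (Dixon's test at its 95% critical value). This happened in 27 of 420 tests, and chance alone marks about 1 in 20. Each value below is the CPM of that animal, followed by that of its nearest neighbour in the group.

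In aged Paneth cells Ddit3 was highest in male replicate 5 at 56.6 CPM (nearest 23.8 CPM) and Derl2 was highest in female replicate 3 at 58.2 CPM (nearest 34.8 CPM). Derl3 was highest in male replicate 7 at 28.1 CPM (nearest 5.93 CPM) and Dnajb11 was highest in male replicate 2 at 146 CPM (nearest 81.9 CPM). Pdia6 was lowest in female replicate 2 at 213 CPM (nearest 348 CPM) and Ssr1 was highest in male replicate 2 at 162 CPM (nearest 87.3 CPM).

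In young Paneth cells Dnajb9 was highest in female replicate 6 at 149 CPM (nearest 45.2 CPM) and Herpud1 was highest in female replicate 6 at 336 CPM (nearest 174 CPM). Hsp90b1 was lowest in female replicate 1 at 214 CPM (nearest 331 CPM) and P4hb was lowest in male replicate 5 at 1207 CPM (nearest 1460 CPM).

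In aged progenitors Dnajb11 was lowest in female replicate 5 at 103 CPM (nearest 131 CPM) and Ern2 was highest in male replicate 2 at 56.9 CPM (nearest 22.4 CPM). Herpud1 was highest in male replicate 5 at 170 CPM (nearest 131 CPM).

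In young progenitors Manf was highest in male replicate 5 at 228 CPM (nearest 165 CPM) and Sec61b was lowest in female replicate 2 at 102 CPM (nearest 257 CPM). Sel1l was highest in female replicate 1 at 68.5 CPM (nearest 58.6 CPM).

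In aged ISCs Ddit3 was lowest in female replicate 5 at 2.23 CPM (nearest 8.74 CPM) and Ern2 was highest in male replicate 3 at 8.22 CPM (nearest 3.6 CPM). Herpud1 was highest in male replicate 3 at 127.7 CPM (nearest 86.7 CPM) and Sel1l was highest in female replicate 4 at 62.0 CPM (nearest 42.5 CPM).

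In young ISCs Atf4 was highest in male replicate 2 at 260 CPM (nearest 206 CPM) and Dnajb11 was lowest in male replicate 4 at 18.9 CPM (nearest 48.4 CPM). Eif2ak3 was highest in female replicate 2 at 29.9 CPM (nearest 12.3 CPM) and Ern2 was highest in female replicate 5 at 8.66 CPM (nearest 2.85 CPM). Pdia6 was lowest in male replicate 1 at 134 CPM (nearest 193 CPM) and Sdf2l1 was highest in female replicate 6 at 11.2 CPM (nearest 3.24 CPM). Sec61b was highest in female replicate 6 at 160 CPM (nearest 88.5 CPM).

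Young female Paneth replicate 6 was highest for both Dnajb9 and Herpud1, and aged male Paneth replicate 2 for both Dnajb11 and Ssr1. No cause was tested.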

How the results depend on the processing

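Under library totals every called member kept its direction once the shift of the median gene was taken off. Scaling moves all genes by nearly the same amount, so that outcome was close to fixed in advance and is no separate check. Some estimates near 0 that were not called changed sign, among them Atf6, Creb3l4 and Sdf2l1 in aged Paneth cells against progenitors. The counts of members called by age, by age and sex together, and by differences of age effects stayed at 0 under every alternative. Library totals alone gave 5 higher and 21 lower members in aged and 1 higher and 24 lower in young Paneth cells against ISCs. Against progenitors there were 0 higher and 30 lower (30 in all) in aged and 1 higher and 32 lower (33 in all) in young Paneth cells. The median gene itself shifted by -1.614 and -1.864 in aged and young mice against ISCs and by -1.448 and -1.715 against progenitors. Shares over all genes are not given for the alternatives, so member counts in this section do not set the module apart. The deepest Paneth library of each animal gave 7 higher and 2 lower (9 in all) in young Paneth cells against progenitors, and 1 lower member, Pdia4, in aged Paneth cells against ISCs, as did DESeq2 with 1. Without animals of 26 and 27 months 4 members were higher in aged Paneth cells against progenitors. With the animal as a replicate block 5 members were lower there, in place of 10. Without the filter the calls of Dnajb11 (aged) and Hsp90b1 and Hspa5 (young) in Paneth cells against ISCs, of Dnajc3 and Sec61a1 in young Paneth cells against progenitors and of Atf6 in young progenitors against ISCs were lost (edgeR adjusted p from 0.0507 to 0.105), and Creld2 (aged) and Dnajb11 and Pdia6 (young) became lower in Paneth cells against progenitors. DESeq2 added Hyou1 in both young comparisons with ISCs and Atf4 and Derl3 in aged Paneth cells against progenitors, where Ssr1 was lost. With DESeq2 size factors edgeR also added Hyou1 in young Paneth cells against ISCs and Atf4, and lost Ssr1, in aged Paneth cells against progenitors, and lost Atf6 in young progenitors against ISCs. Without mitochondrial genes Ssr1 was lost too (edgeR adjusted p = 0.0545). The replicate number as a block changed no call by age. Calls lost without animals of 26 and 27 months were Ddit3, Dnajb9, Dnajc3, Herpud1, Pdia4 and Ssr1 (Paneth cells against progenitors), Atf6, Ddit3, Dnajb11, Hspa5 and Manf (Paneth cells against ISCs) and Atf6, Ern1 and Sel1l (progenitors against ISCs). With the deepest library young Paneth cells against progenitors lost Ddit3, Dnajc3, Manf, Pdia3, Sec61a1 and Syvn1. It also ended the calls of Canx, Ddit3, Dnajb11 and Ssr1 (aged Paneth cells against progenitors), Atf6, Ddit3 and Sel1l in aged and Atf6, Derl1, Ern1, Hsp90b1, Hspa5 and Sel1l in young Paneth cells against ISCs, and Atf6, Ern1 and Sel1l at both ages and Herpud1 in aged mice for progenitors against ISCs. Leaving out 1 sample at a time gave 4 to 8 lower members in young Paneth cells against progenitors and 0 to 1 in aged Paneth cells against ISCs. Causes were not tested. Depth limits members near 0 counts, such as Derl3 and Hyou1.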
